A study of Mus musculus with 7 samples.

Results

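The 38 genes described here encode parts of the B cell receptor, its co-receptors and signalling proteins, B cell transcription factors, and surface or cytoplasmic proteins that mark B cells or their follicular and marginal zone subsets. They were taken by gene symbol from a table of 22173 mouse genes, and all 38 were found. RNA sequencing compared 3 spleen libraries of a PBS group (phosphate-buffered saline) with 4 spleen libraries of an sHA-X group. The sHA-X spleens had received repeated injections of a biomaterial known in the labels only by that code, which was meant to turn the spleen into a site for transplanted liver cells. Hepatocytes, the main cells of the liver, were then injected into the spleen, and RNA was taken 30 days later in both groups, so both carry the hepatocyte injection. The sources used here give no strain, age or sex, no origin of the hepatocytes and no statement that libraries came from separate animals, so p-values measure the spread between these libraries, which may be technical.

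A B cell senses antigen through surface immunoglobulin paired with the signalling chains CD79A and CD79B. Their cytoplasmic tyrosine motifs are phosphorylated by Src-family kinases such as BLK and then recruit SYK, which passes the signal through the adaptor BLNK to BTK and PLCG2. CR2 (CD21) and CD81 belong to a co-receptor that lowers the threshold for activation, and CD22 and CD72 carry inhibitory motifs. In the spleen, follicular B cells recirculate through B cell follicles, carry CD23 (Fcer2a) and depend on the cytokine BAFF. Marginal zone B cells sit at the edge of the white pulp, need the receptor NOTCH2, and carry high levels of CR2, CD1D and CD9. Several of these genes are also used outside the B lineage: Syk, Plcg2 and Btk by myeloid cells, Cd9 and Cd81 by many cell types, and Cr2 by follicular dendritic cells.

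Promoter sequences were printed for 5 genes whose levels mark both ends of the comparison: Niban3, Vpreb3 and Fcer2a, which fell most among the 38, and Cd81 and Cr2, which lay at the other end. Each run is the 250 bases before an annotated start, 5′ to 3′ on the gene's strand, from the RefSeq promoter table of GRCm38.p6. The runs are chr8:71597458-71597707 on the plus strand for Niban3, chr10:75948050-75948299 on the plus strand for Vpreb3, chr8:3694175-3694424 on the minus strand for Fcer2a (the outermost of its 3 listed starts), chr7:143052500-143052749 on the plus strand for Cd81 and chr1:195176720-195176969 on the minus strand for Cr2. Capitals mark matches to 4 short motifs, read on both strands: the octamer ATTTGCAT of POU factors, the EBF1 half-sites CCCNNGGG, the PU box GAGGAAGT and the RBPJ core GTGGGAA, RBPJ being the DNA-binding partner of Notch receptors.
Niban3: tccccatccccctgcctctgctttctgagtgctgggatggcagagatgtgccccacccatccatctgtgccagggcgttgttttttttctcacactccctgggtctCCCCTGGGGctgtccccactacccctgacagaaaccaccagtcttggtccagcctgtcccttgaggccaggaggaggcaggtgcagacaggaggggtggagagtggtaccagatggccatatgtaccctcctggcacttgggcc
Vpreb3: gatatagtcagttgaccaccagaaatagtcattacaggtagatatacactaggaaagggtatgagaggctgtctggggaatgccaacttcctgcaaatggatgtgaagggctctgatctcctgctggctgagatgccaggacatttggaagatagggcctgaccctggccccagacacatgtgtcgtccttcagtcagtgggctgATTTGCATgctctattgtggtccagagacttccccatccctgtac
Fcer2a: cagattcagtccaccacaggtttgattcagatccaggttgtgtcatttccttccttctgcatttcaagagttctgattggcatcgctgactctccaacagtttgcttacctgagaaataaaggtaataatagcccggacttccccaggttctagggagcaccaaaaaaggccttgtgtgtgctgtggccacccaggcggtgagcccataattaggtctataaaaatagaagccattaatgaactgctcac
Cd81: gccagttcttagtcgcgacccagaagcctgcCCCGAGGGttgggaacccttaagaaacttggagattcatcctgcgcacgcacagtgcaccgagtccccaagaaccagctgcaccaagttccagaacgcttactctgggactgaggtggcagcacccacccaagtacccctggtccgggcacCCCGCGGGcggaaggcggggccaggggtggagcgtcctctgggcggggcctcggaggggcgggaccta
Cr2: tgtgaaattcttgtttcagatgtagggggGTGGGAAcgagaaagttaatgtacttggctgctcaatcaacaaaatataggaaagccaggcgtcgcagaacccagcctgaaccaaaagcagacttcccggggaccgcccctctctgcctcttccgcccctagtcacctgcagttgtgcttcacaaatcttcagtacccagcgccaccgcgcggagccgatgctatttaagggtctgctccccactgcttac
The Niban3 run holds 2 overlapping EBF1 half-site pairs, whose first bases lie 144 and 143 bases before the start. In Vpreb3 the octamer begins 45 bases before the start. Cd81 has EBF1 half-site pairs at 219 and 68 bases, Cr2 has an RBPJ core at 221 bases, and the Fcer2a run has none of these letters. Of the 38 genes, 32 had an entry in that table, with 37 windows that reach from 250 bases before to 50 after the start. Blk, Cd1d1, Cd24a, Cd79b, Cd83 and Ms4a1 did not match. The octamer stood in 2 of the 37 windows (5.41%, Blnk and Vpreb3) and in 1.74% of all 32851 windows in the table. CCCNNGGG was in 7 (18.9%) against 13.7% of all windows, GAGGAAGT in 3 (8.11%) against 3.202%, and GTGGGAA in 4 (10.8%) against 6.38%. With so few windows these shares are descriptions, and a match is not evidence of binding. The RBPJ core was added to the search after expression values had been seen.

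Between 29523103 and 37116877 whole reads per library were recovered from the deposited values, and the 38 genes had between 409 reads (Vpreb3) and 55903 reads (Cd24a) in a library. Some libraries stood apart by their summed FPKM of marker lists for other tissues. Pancreatic acinar genes summed to 817 in PBS replicate 2 and to at most 35.2 in the other libraries. Muscle genes summed to 183 in sHA-X replicate 2 and to at most 16.3 elsewhere. Hepatocyte genes summed to 662 and 692 in sHA-X replicates 3 and 4 and to at most 21.3 in the other libraries. Of 11920 genes tested, 1108 were higher and 600 lower in sHA-X, so that 35.1% of calls were lower. That share was 25.0% after scaling to equal totals, 45.7% after median-of-ratios scaling and 55.9% after quantile normalisation.

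Both signalling chains of the B cell receptor, the kinase Blk and the lineage factor Pax5 were lower in the sHA-X libraries. So were CD20 (Ms4a1) and the follicular marker Fcer2a, and among these genes the falls ran from 25.7% to 49.8%. None of the 7 marginal zone genes passed the test, which is near the shares of all genes tested that were lower (5.03%) or higher (9.30%). With limma on log2(FPKM + 1) and Benjamini-Hochberg adjustment over all genes tested, 16 of the 38 genes (42.1%) fell at an adjusted p under 0.05, against 5.03% of all genes tested. Only Cd81 rose (1 of 38), against 9.30% of all genes, and 21 did not pass. The median difference of the 38 genes was -0.25 on the log2 scale, beside 0.03 over all genes tested. For 20 of the 38 genes (52.6%) every sHA-X library lay below every PBS library, against 11.5% of all genes, and for 1 gene every sHA-X library lay above, against 17.2%. In bulk tissue, fewer B cells and less RNA per B cell cannot be told apart. The count of 16 stood at 16 without PBS replicate 2 and sHA-X replicate 2, with 14 genes shared, and at 9, all of them among the 16, without sHA-X replicates 3 and 4. Those 9 were Cd79b, Ms4a1, Bach2, Fcrla, Niban3, Cd55, Vpreb3, Ralgps2 and Fcer2a. With the replicate number added to the fit as a block, the count was 5.

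**Figure D1:**
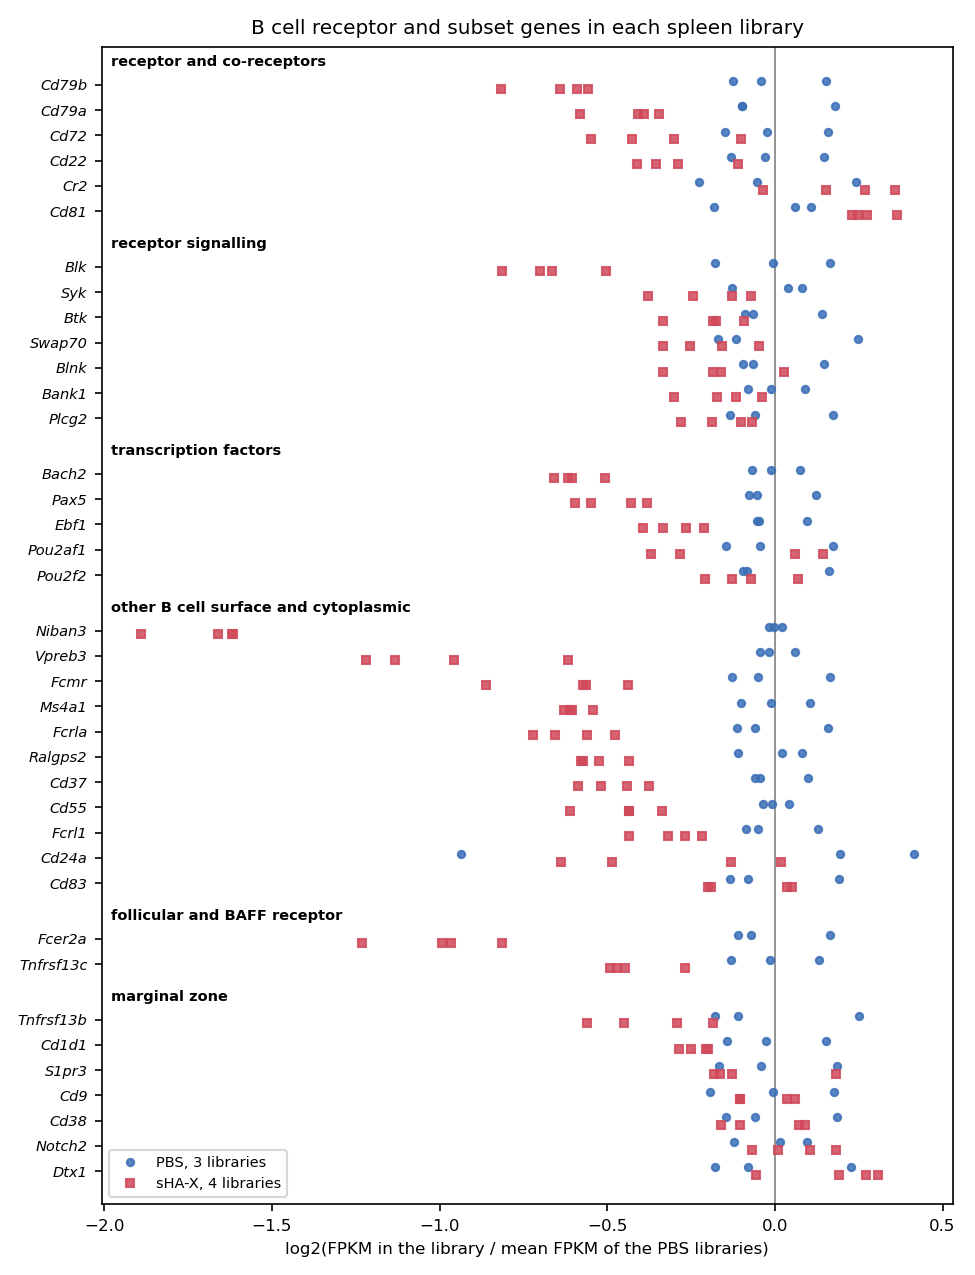
Each row is 1 gene, grouped by role, and each point is 1 library: circles for the 3 PBS and squares for the 4 sHA-X libraries. The horizontal axis is log2 of the library's FPKM over the mean FPKM of the PBS libraries, so 0 is the PBS mean. The squares of Niban3, Vpreb3 and Fcer2a lie farthest left, those of Cd81 lie to the right of all its circles, and the squares and circles of the marginal zone genes overlap for all but Cd1d1 and Tnfrsf13b.

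Values below are FPKM (fragments scaled to transcript length and library depth), listed in the order PBS replicates 1 to 3 and sHA-X replicates 1 to 4. Means carry the SD over the libraries of the group (PBS, n = 3; sHA-X, n = 4). Differences are sHA-X minus PBS on the log2(FPKM + 1) scale, which understates changes of low genes, with their standard error (SE) and limma's adjusted p.

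Both signalling chains of the receptor fell. Cd79a (NCBI gene 12518, chr7:24897497-24901858 in GRCm38) had 578, 579 and 700.5 in PBS against 488, 473, 467 and 414 in sHA-X. The lowest PBS library was above the highest sHA-X library, and PBS replicate 3 stood above the other two. The means were 619 ± 70.5 and 460.2 ± 32.0, a level 25.7% lower (difference -0.42, SE 0.09, adjusted p = 0.018). Its adjusted p was 0.15 without sHA-X replicates 3 and 4. Cd79b (gene 15985, chr11:106311341-106314562) had 491, 463 and 561 in PBS against 343, 324, 335 and 287 in sHA-X. Again the groups did not overlap, and the mean was 36.2% lower, at 322 ± 25.0 against 505 ± 50.4 (difference -0.65, SE 0.09, adjusted p = 0.0032). The ratio of Cd79b to Cd79a was 0.849, 0.801 and 0.801 in PBS against 0.704, 0.685, 0.718 and 0.692 in sHA-X, lower in every sHA-X library than in any PBS library, with no test given.

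The co-receptor genes Cd81 and Cr2 were not lower in sHA-X. Cd81, a tetraspanin of the co-receptor, had 82.7, 69.9 and 85.4 in PBS against 95.9, 102, 93.1 and 94.2 in sHA-X. All 4 sHA-X libraries were above all 3 PBS libraries. The mean rose from 79.3 ± 8.30 to 96.3 ± 4.01 (difference 0.28, SE 0.08, adjusted p = 0.047). This call held in only 1 of the 7 fits that each left out 1 library, the one without PBS replicate 3, and the adjusted p reached 0.11 in the others. It was 0.14 with quantile normalisation, 0.071 with no filter on low values and 0.16 without sHA-X replicates 3 and 4. Cr2, the complement receptor CD21, had 48.1, 42.7 and 59.0 in PBS against 60.1, 64.0, 55.5 and 48.7 in sHA-X. These ranges overlap, and the difference of 0.20 (SE 0.12, 95% confidence interval -0.09 to 0.48) did not pass (adjusted p = 0.34).

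Cd22 and Cd72, both inhibitory receptors, did not pass. Cd22 had 74.6, 69.5 and 84.3 in PBS against 62.4, 70.6, 57.2 and 59.6 in sHA-X, where replicate 2 reached into the PBS range (difference -0.28, SE 0.09, adjusted p = 0.074). Cd72 averaged 94.7 ± 10.2 and 75.1 ± 10.1 (difference -0.33, SE 0.11, adjusted p = 0.085). Each of them passed, in the lower direction, without sHA-X replicate 2 (adjusted p = 0.047 for Cd22 and 0.043 for Cd72).

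Of the 7 signalling genes, 1 fell (14.3%, against 5.03% of all genes tested), none rose and 6 did not pass, with a median difference of -0.18. A count of 1 in 7 is too small to set apart from that background. Blk, the B cell Src-family kinase (gene 12143), had 79.1, 70.2 and 89.0 in PBS against 50.1, 56.0, 48.8 and 45.2 in sHA-X. No sHA-X library reached the lowest PBS library. The mean was 37.01% lower, at 50.03 ± 4.47 against 79.4 ± 9.39 (difference -0.65, SE 0.10, adjusted p = 0.0041). The adjusted p was 0.051 without sHA-X replicates 3 and 4. The other 6 signalling genes had smaller differences, and their gap to Blk was not tested. Btk, the kinase that activates PLCG2, had 43.4, 42.7 and 50.1 in PBS against 40.0, 42.6, 36.1 and 40.2 in sHA-X. The highest sHA-X library was just under the lowest PBS library, and the difference of -0.19 (SE 0.08) did not pass (adjusted p = 0.15). Syk had 59.1, 52.6 and 60.9 in PBS against 52.7, 54.8, 48.6 and 44.3 in sHA-X, with overlapping groups (difference -0.20, adjusted p = 0.16). For Bank1, a scaffold of B cell receptor signalling, the values were 69.9, 66.7 and 75.0 in PBS against 65.0, 68.7, 57.3 and 62.6 in sHA-X. They overlap at sHA-X replicate 2 (difference -0.15, adjusted p = 0.21). Blnk, Plcg2 and Swap70, a guanine exchange factor of B cells, had means 10.3%, 10.3% and 12.6% lower in sHA-X, with adjusted p of 0.31, 0.29 and 0.31.

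Of the 5 transcription factors, 2 fell (40.0%, against 5.03% of all genes tested) and 3 did not pass (median difference -0.21). Pax5, which keeps B cells committed to their lineage (gene 18507, chr4:44524748-44710694), had 51.4, 52.3 and 59.0 in PBS against 40.2, 41.6, 35.9 and 37.1 in sHA-X. Every sHA-X library was below every PBS library (28.6% lower, difference -0.48, SE 0.07, adjusted p = 0.0055). The adjusted p was 0.061 without sHA-X replicates 3 and 4. Bach2, a repressor that holds back plasma cell differentiation, had 8.87, 8.53 and 9.42 in PBS against 5.67, 6.30, 5.83 and 5.88 in sHA-X. The libraries were close together within each group, and the mean was 33.8% lower (difference -0.52, SE 0.06, adjusted p = 0.0019). Ebf1, an early B lineage factor, had low FPKM, at 2.54, 2.53 and 2.81 in PBS against 2.27, 2.19, 2.08 and 2.001 in sHA-X. It had 2581 to 3740 recovered reads per library, so the low FPKM do not mean few reads. The groups did not overlap, yet the difference of -0.21 (SE 0.07) did not pass (adjusted p = 0.094). Adding 1 to such low FPKM shrinks the difference. With 0.1 added instead it was -0.29 and did not pass (limma adjusted p = 0.097). Ebf1 passed as lower with voom on the recovered reads (difference -0.30, adjusted p = 0.019). Pou2f2, the octamer-binding factor OCT2, had 13.6, 13.5 and 16.1 in PBS against 13.2, 15.1, 12.5 and 13.7 in sHA-X. Its groups overlap (difference -0.07, adjusted p = 0.62), as do those of its coactivator Pou2af1 (139.8 ± 16.1 and 131 ± 22.7, adjusted p = 0.67).

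**Figure D2:**
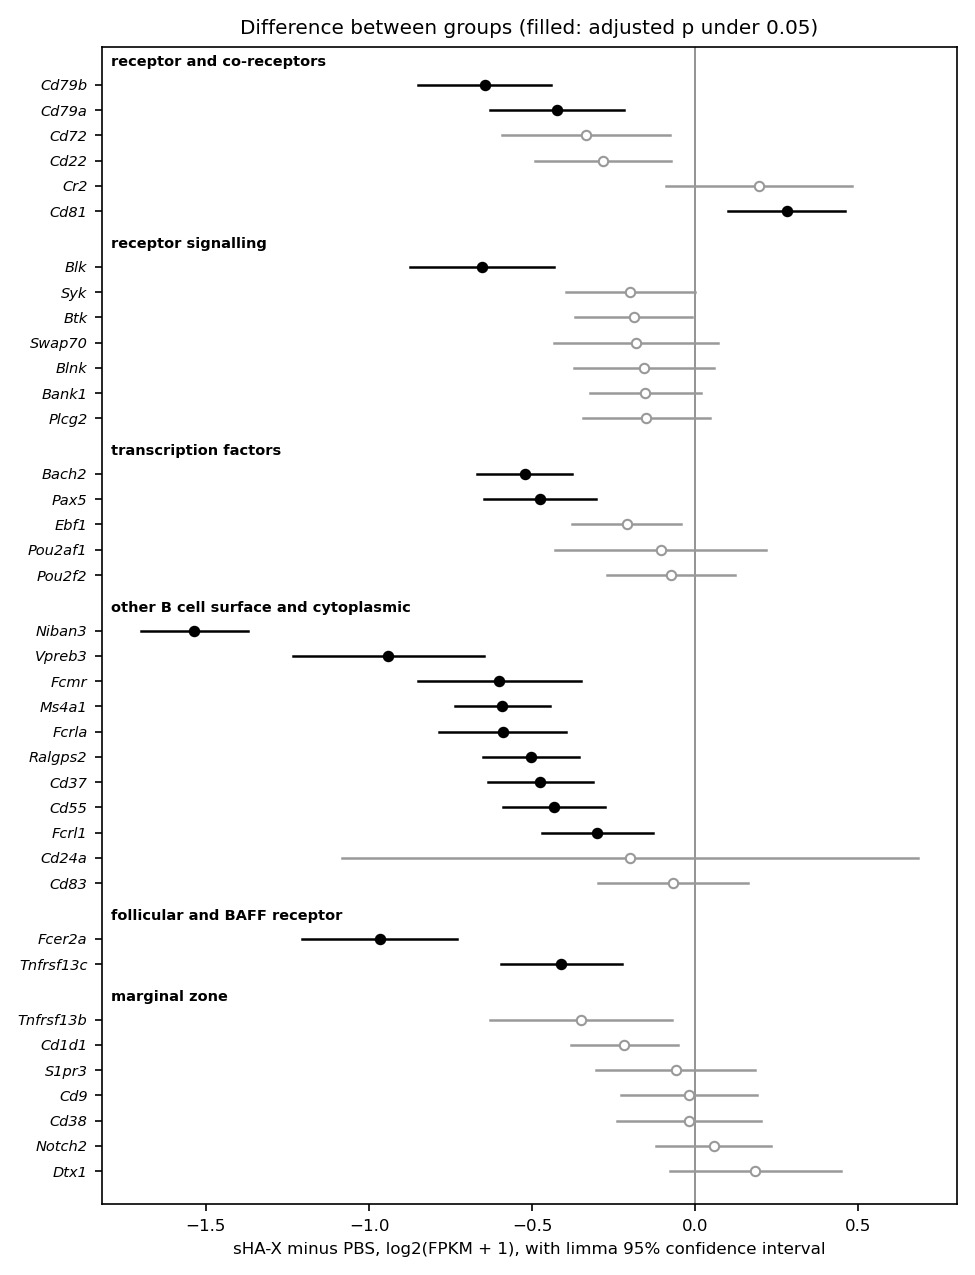
For each of the 38 genes the point gives the sHA-X minus PBS difference on the log2(FPKM + 1) scale and the bar its 95% confidence interval from limma. Filled black points passed at an adjusted p under 0.05. The largest fall is that of Niban3 at -1.54, the only filled point above 0 is Cd81 at 0.28, and all 7 marginal zone points are open.

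The other surface and cytoplasmic genes held most of the falls, 9 of 11 (81.8%, against 5.03% of all genes tested). None was higher, and the median difference was -0.50. Niban3, a protein of the Niban family (gene 100037278, chr8:71596356-71608146), had 17.97, 17.8 and 18.3 in PBS against 5.88, 5.70, 5.87 and 4.86 in sHA-X. The spread within each group was small beside the gap between them. The mean was 69.1% lower, at 5.58 ± 0.486 against 18.02 ± 0.236, from 814 to 2946 recovered reads per library (difference -1.54, SE 0.07, adjusted p = 3.7e-05). Its highest adjusted p with any 1 library left out was 0.00091. Of 8 dendritic cell markers 3 fell and 1 rose, with Siglech at -1.23 (limma adjusted p = 0.00046). The part of cells outside the B lineage in the Niban3 level was not tested. Vpreb3, a chaperone-like protein that binds immunoglobulin chains in the B lineage (gene 22364, chr10:75943024-75949657), had 33.5, 32.9 and 35.4 in PBS against 17.5, 15.5, 22.2 and 14.6 in sHA-X. Within sHA-X, replicate 3 was the highest and still below all PBS libraries (48.7% lower, difference -0.94, SE 0.13, adjusted p = 0.0032).

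Ms4a1, which encodes CD20, the surface protein used to recognise mature B cells (gene 12482, chr19:11249679-11266149), had 302, 284 and 328 in PBS against 199, 209, 201 and 197 in sHA-X. The sHA-X libraries lay within a narrow band below the PBS range (33.9% lower, difference -0.59, SE 0.06, adjusted p = 0.0012). Ralgps2, a guanine exchange factor for Ral GTPases, had 24.6, 26.9 and 28.0 in PBS against 18.4, 19.6, 17.8 and 17.8 in sHA-X, with no overlap (difference -0.50, SE 0.06, adjusted p = 0.0024). The other 5 that fell were Fcmr, the IgM Fc receptor (34.1% lower), the Fc receptor-like genes Fcrla (34.0%) and Fcrl1 (19.2%), the tetraspanin Cd37 (28.2%) and the complement regulator Cd55 (26.8%). Their adjusted p ranged from 0.0038 (Fcrla) to 0.032 (Fcrl1). The Fcrl1 call held in only 1 of the 7 fits with 1 library left out, the one without sHA-X replicate 1 (highest adjusted p 0.074). Without sHA-X replicates 3 and 4 the adjusted p was 0.055 for Cd37, 0.066 for Fcmr and 0.21 for Fcrl1.

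Cd24a and Cd83 did not pass. Cd24a, whose product coats immature red cells as well as B cells, had 680.3, 792 and 310.3 in PBS against 542, 382, 601 and 425 in sHA-X (adjusted p = 0.77). It was the most variable of the 38 genes, and PBS replicate 3 was below every sHA-X library. Summed FPKM of 7 erythroid markers were 23684, 22751 and 11342 in PBS against 12148, 8527, 13266 and 9498 in sHA-X. PBS replicates 1 and 2 were highest for both Cd24a and the erythroid sum, and within sHA-X both had the order replicate 3, 1, 4, 2; the erythroid part in the Cd24a level was not tested. Cd83, an activation and maturation marker, averaged 73.8 ± 9.15 and 70.2 ± 6.68 (adjusted p = 0.71).

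Both genes of the follicular group fell, against 5.03% of all genes tested, in a group of only 2. Fcer2a, the low-affinity IgE receptor CD23 (gene 14128, chr8:3680280-3694174), had 48.1, 46.8 and 56.6 in PBS against 28.7, 25.8, 25.4 and 21.5 in sHA-X. Every sHA-X library was far below the PBS range. The mean was 49.8% lower, at 25.4 ± 2.96 against 50.5 ± 5.34 (difference -0.97, SE 0.10, adjusted p = 0.0012). Tnfrsf13c, the BAFF receptor on which mature B cells depend, had 81.6, 75.3 and 90.4 in PBS against 59.4, 68.4, 60.4 and 58.7 in sHA-X. There was no overlap, although sHA-X replicate 2 came near (25.1% lower, difference -0.41, SE 0.08, adjusted p = 0.014). The adjusted p was 0.056 without PBS replicate 1 and 0.13 without sHA-X replicates 3 and 4.

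Of the 7 marginal zone genes, 0 passed in either direction, with limma on FPKM or with voom on recovered reads. With 5.03% of all genes tested lower and 9.30% higher, 0 of 7 is near the background. Their median difference was -0.02. For 2 of the 7 (28.6%) every sHA-X library lay below every PBS library, against 11.5% of all genes. Tnfrsf13b and Cd1d1 had an unadjusted p under 0.05. Tnfrsf13b, the receptor TACI for BAFF and APRIL, had 42.0, 44.0 and 56.5 in PBS against 34.8, 41.8, 32.2 and 38.8 in sHA-X. The groups did not overlap, by a narrow margin (difference -0.35, SE 0.12, adjusted p = 0.093). Cd1d1, which presents lipids to natural killer T cells, had 17.2, 15.8 and 19.4 in PBS against 15.2, 15.2, 14.7 and 14.4 in sHA-X. Here too all sHA-X libraries were below PBS (difference -0.22, SE 0.07, adjusted p = 0.082), and it passed as lower without PBS replicate 2 (adjusted p = 0.045) and with median-of-ratios scaling (0.039). Its near-identical neighbour Cd1d2 may share reads with it, so the split between them is uncertain.

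Notch2, the receptor that directs B cells to the marginal zone, had 24.5, 22.3 and 25.9 in PBS against 27.5, 26.1, 24.4 and 23.1 in sHA-X. Dtx1, a Notch target gene, had 27.2, 29.1 and 36.0 in PBS against 37.1, 38.1, 35.1 and 29.6 in sHA-X. Both overlap between groups, with differences of 0.06 (95% confidence interval -0.12 to 0.23, adjusted p = 0.67) and 0.18 (-0.08 to 0.45, adjusted p = 0.33). For Cd9, Cd38 and S1pr3, the sphingosine receptor of marginal zone B cells, the intervals were -0.23 to 0.19, -0.24 to 0.20 and -0.30 to 0.18. A fall as large as that of Fcer2a lies outside each of these 5 intervals. Fcer2a was taken as the measure with its level known and was among the genes that fell most. In bulk tissue, the part of other cells in the levels of these 5 genes was not tested. The summed FPKM of the 7 genes were 273, 258 and 325 in PBS against 268, 296, 257 and 276 in sHA-X.

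**Figure D3:**
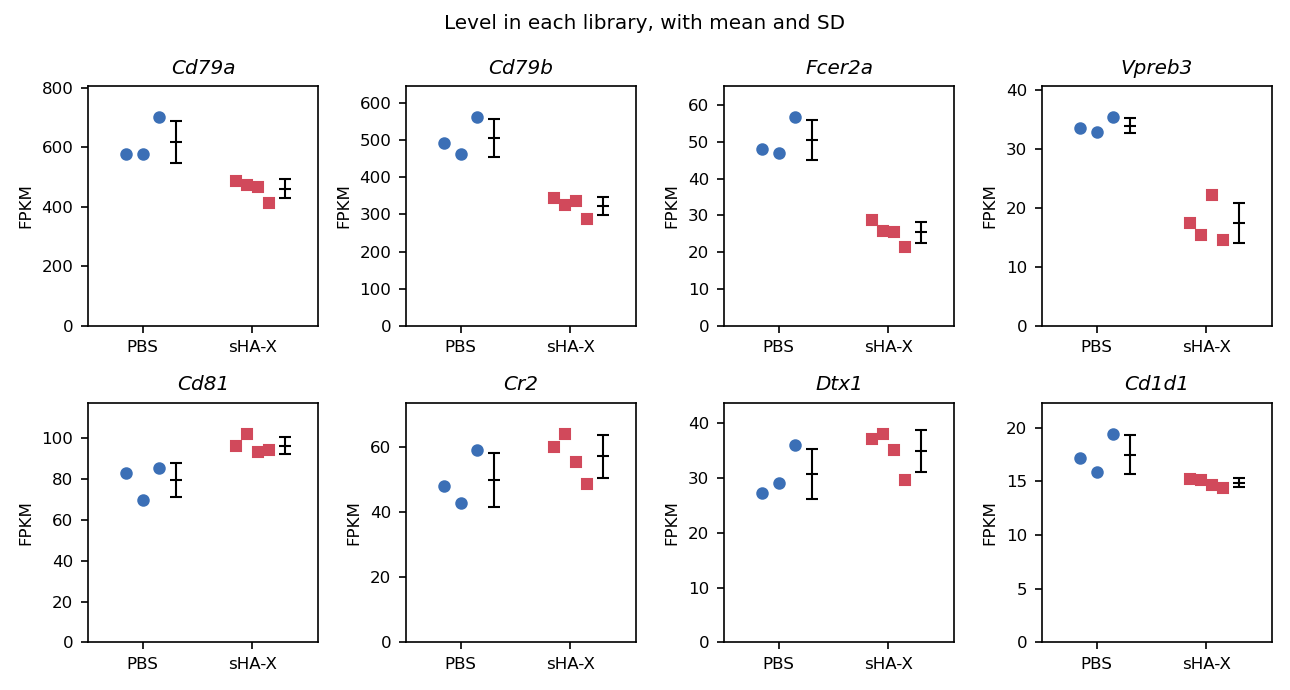
Each panel shows 1 gene, with FPKM on a vertical axis that starts at 0, circles for PBS and squares for sHA-X libraries, and the mean with SD beside them. Cd79a, Cd79b, Fcer2a and Vpreb3 in the upper row have no sHA-X library within the PBS range; in the lower row Cd81 is higher without overlap, Cr2 and Dtx1 overlap, and Cd1d1 is slightly lower.

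The levels of Cr2 and Dtx1 can be set over that of Fcer2a within each library, with the limit that Cr2 is also expressed by follicular dendritic cells. Cr2 over Fcer2a was 0.9997, 0.911 and 1.04 in PBS against 2.09, 2.48, 2.19 and 2.26 in sHA-X. Dtx1 over Fcer2a was 0.566, 0.620 and 0.635 in PBS against 1.29, 1.47, 1.38 and 1.37 in sHA-X. Both ratios were higher in each sHA-X library than in any PBS library. Their denominator Fcer2a was itself 49.8% lower, so any gene with a steady level would give a higher ratio. The ratios therefore do not show a shift between subsets. They were chosen with the levels known, and no test is given for them.

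A second fit shifted every library so that the mean log2(FPKM + 1) of 6 B cell genes (Cd79a, Cd79b, Ms4a1, Pax5, Ebf1 and Blk) was the same in all. On this scale most genes of the table move up, and 86.4% of all genes tested were called higher and 0.260% lower. Of the 32 other genes described here, 19 (a smaller share than the background) were higher, 3 lower and 10 did not pass, and their median was 0.30 against 0.53 for all genes tested. The 3 lower were Niban3 (-1.03, adjusted p = 3.9e-05), Fcer2a (-0.47, adjusted p = 0.00062) and Vpreb3 (-0.44, adjusted p = 0.010), so these fell beyond the reference genes. The Vpreb3 adjusted p was 0.053 without PBS replicate 2 and sHA-X replicate 2. Highest were Cd81 (0.78, adjusted p = 7.9e-05), Cr2 (0.70, adjusted p = 0.00018), Dtx1 (0.68, adjusted p = 0.00018) and Notch2 (0.56, adjusted p = 0.00019), which lay above the median of all genes. Besides Dtx1 and Notch2, the marginal zone genes Cd9 (0.48), Cd38 (0.48), S1pr3 (0.44), Cd1d1 (0.28) and Tnfrsf13b (0.15) lay below that median of 0.53. Relative signalling differences were 0.30 for Syk, 0.31 for Btk and 0.35 for Bank1 and Plcg2, also below it.

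Further genes were read against the same backgrounds, 5.03% of all genes tested lower and 9.30% higher. Of 44 further B cell receptor pathway genes tested, 4 fell (9.09%), 1 rose (2.27%) and 39 did not pass, with a median of -0.09. The share that fell is near the background, and the share that rose is below it. Among the 4 were the NF-kappaB subunit Rel (-0.27, adjusted p = 0.019) and the kinase Prkcb (-0.29, adjusted p = 0.029). This count ran from 1 to 4 with 1 library left out. Rel was lost without PBS replicate 1 or sHA-X replicate 4, and Prkcb in 5 of the 7 fits, kept without PBS replicate 2 or sHA-X replicate 2 (highest adjusted p 0.10). Fcgr2b, the inhibitory Fc receptor that B cells and myeloid cells share, rose from 44.3 ± 5.87 to 58.6 ± 2.03 (0.40, adjusted p = 0.017), a call lost without PBS replicate 1 or 2 (highest adjusted p 0.081). Of 25 further B cell identity genes, 11 fell (44.0%, against 5.03% of all genes), 0 rose and 14 did not pass, with a median of -0.28. The smallest p among them belonged to H2-Ob, a class II peptide-loading regulator (138 to 91.0), the inhibitory lectin Siglecg (50.7 to 27.5), the transcription factor Spib (126 to 76.5) and the differentiation inhibitor Id3 (74.2 to 49.8). The count of 11 was 3 without sHA-X replicates 3 and 4, and 6 without PBS replicate 2 and sHA-X replicate 2.

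Among 8 further follicular or recirculation genes, 4 fell and 4 did not pass (median -0.33), against 5.03% of all genes lower. These were S1pr4, a sphingosine receptor (36.3 to 21.2, adjusted p = 0.00039), Zfp318, needed for IgD expression (20.1 to 13.8, adjusted p = 0.0036), Klf2, a factor that controls B cell homing (139 to 92.3, adjusted p = 0.0084), and the chemokine receptor Ccr7 (66.4 to 52.0, adjusted p = 0.029). The Ccr7 call held only without PBS replicate 2 or sHA-X replicate 3 (highest adjusted p 0.084). The follicle homing receptor Cxcr5 did not pass (adjusted p = 0.75). Among 15 further marginal zone genes, 3 fell (against 5.03% of all genes), 1 rose (6.67%, against 9.30%) and 11 did not pass (median -0.15). Plac8 (-0.38, adjusted p = 0.0070), the scavenger receptor Cd36 (-0.43, adjusted p = 0.017) and the immediate early gene Nr4a1 (-0.32, adjusted p = 0.035) were lower, and the membrane protein Myof was higher (5.82 to 11.6, adjusted p = 0.0015). Nr4a1 was lost in 5 of the 7 fits with 1 library left out and kept without PBS replicate 2 or sHA-X replicate 2 (highest adjusted p 0.090). The Notch target Hes1 (adjusted p = 0.41) and the Notch partner Rbpj (adjusted p = 0.46) did not pass.

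Of 4 tested genes for immature and transitional B cells, 1 fell (25.0%, against 5.03% of all genes) and 3 did not pass. Atp1b1, a sodium pump subunit, fell from 19.5 ± 2.08 to 8.69 ± 0.45 (-1.08, adjusted p = 0.00031). The part of cells outside the B lineage in its level was not tested. Of 8 genes for B1 cells 1 rose (12.5%, near the 9.30% of all genes) and 7 did not pass. It was the transcription factor Bhlhe40 (0.30, adjusted p = 0.032). That call held only without PBS replicate 3 or sHA-X replicate 3 (highest adjusted p 0.13). Tnfsf13b, the gene of the cytokine BAFF, rose from 3.60 ± 0.333 to 5.94 ± 0.448 (0.59, adjusted p = 0.0033). Tnfsf13, the gene of APRIL, rose from 0.830 to 1.43 (0.41, adjusted p = 0.012), and its adjusted p was 0.054 without PBS replicate 1.

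Among 10 plasma cell genes, the secretory factor Xbp1 rose from 75.9 ± 8.23 to 140.7 ± 35.4 (0.85, adjusted p = 0.034), a call kept only without sHA-X replicate 1 or 3 (highest adjusted p 0.12). Summed FPKM of the list were 634, 800.5 and 946 in PBS against 1124, 2403, 1130.3 and 2552 in sHA-X. Replicates 2 and 4 of sHA-X were thus high within their group. Of the 38 genes, 11 were also higher in both of these libraries than in replicates 1 and 3: Cd72, Blnk, Btk, Swap70, Pou2af1, Pou2f2, Bach2, Cd83, Cd9, Tnfrsf13b and Cd38. These have varied roles. The share of all genes with this order was not counted, so the 11 are a description and not a result about these genes. The part of plasma cells in their values was not tested.

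Markers of other spleen cells moved as well, some upward and some downward like the B cell genes. Over all genes tested, 9.30% were higher and 5.03% lower. Of 7 platelet and megakaryocyte markers 6 fell (median -0.49, sums 432 to 544 in PBS and 295 to 369 in sHA-X). For all 7, every sHA-X library lay below every PBS library, against 11.5% of all genes. Of 8 dendritic cell markers 3 fell, among them Siglech (-1.23, adjusted p = 0.00046) and Clec9a (-0.86, adjusted p = 0.0018), and 1 rose. Genes outside the B lineage fell too. Of 12 macrophage markers 10 rose and 0 fell, and their summed FPKM were 1491 to 1963 in PBS against 2954 to 3157 in sHA-X. Of 8 fibroblast markers 7 rose (138 to 192 against 369 to 579.8). Of 10 monocyte and neutrophil markers 3 rose (2014 to 3335 against 3488 to 5417). The 12 T cell markers had 1 fall (8.33%, near the background) and a median of -0.32, beside -0.25 for the 38 B cell genes. For 5 of the 12 (41.7%) every sHA-X library lay below every PBS library, against 11.5% of all genes. T cell sums were 397 to 529 in PBS against 305 to 398 in sHA-X. PBS replicate 3 held the highest T cell sum and the highest sum of the 37 B cell genes without Cd24a. Of 8 genes for follicular dendritic cells, which express Cr2, Coch, Cxcl13 and Mfge8 fell while Vcam1 and Fcgr2b rose (1379.7 to 1878 against 1384 to 1526). The Cxcl13 and Mfge8 calls were each lost in 5 of the 7 fits with 1 library left out (highest adjusted p 0.10 and 0.11). Both were kept without PBS replicate 2, Cxcl13 also without PBS replicate 3 and Mfge8 also without sHA-X replicate 2. No marker on these lists was at 0 in all libraries. Sums of the 7 erythroid markers were far larger, at 11342 to 23684 in PBS against 8527 to 13266 in sHA-X, and 0 of them passed. Since FPKM are shares of a library, more RNA from other cells lowers the values of B cell genes, and less RNA from them raises these values. The part of either in the differences was not tested.

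**Figure D4:**
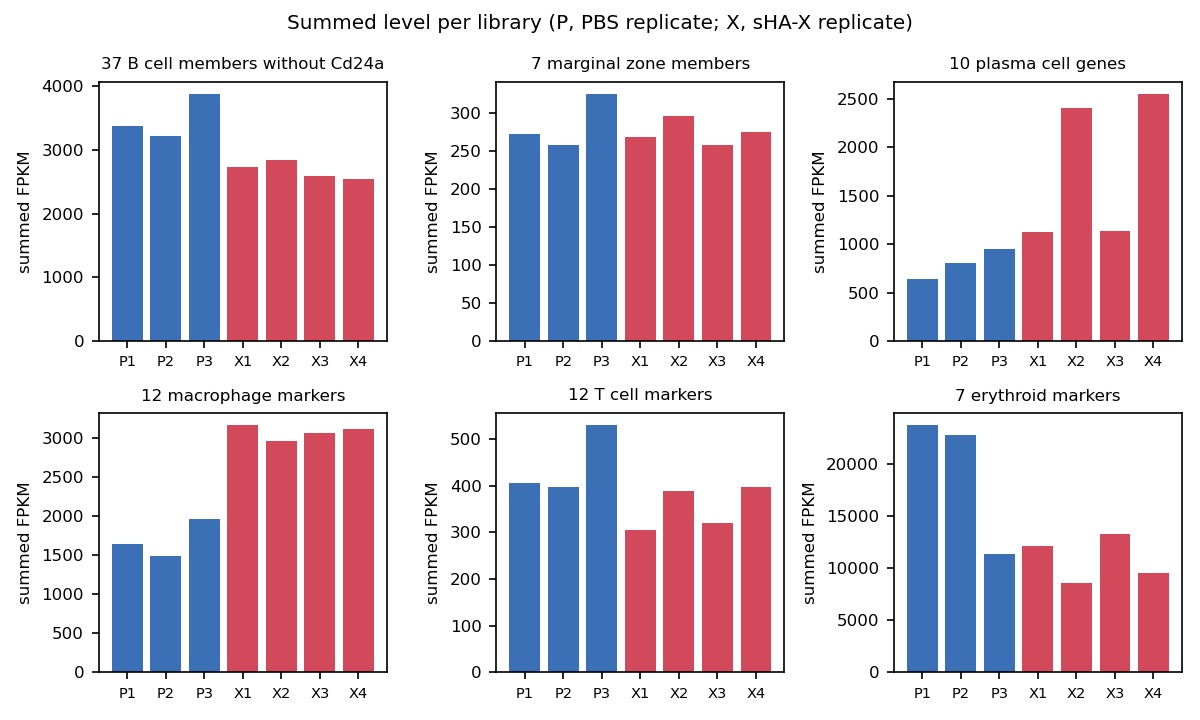
Bars give the summed FPKM of 6 gene lists in each library, P1 to P3 for PBS and X1 to X4 for sHA-X, on axes that start at 0. The sum of the 37 B cell genes without Cd24a is lower in every sHA-X library than in any PBS library, the marginal zone sum is not, the macrophage sum is higher in every sHA-X library, and plasma cell genes are highest in X2 and X4.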

How the data were processed

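The authors deposited 1 table with a value per gene and library, whose header names no unit. The deposited values were read as FPKM because, within a gene, they are whole multiples of a step. Whole reads were recovered (within 0.05 of a read) for 100% of the 16889 genes above 0 in at least 2 libraries; 704 genes above 0 in 1 library were not recovered. Totals differed between libraries by up to 1.26 times, so counting error is similar in all 7. Per the labels' protocols, TRIzol RNA and the VAHTS Universal V6 kit were used. Genome build mm10 and the tools HISAT2, HTSeq, fastp, DESeq2 and R 3.2.0 appear in the submitters' processing notes with no role stated. No source used here gives the strand setting, so overlapping genes cannot be told apart.

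The test was limma 3.58.1 on log2(FPKM + 1) (trend and robust options, R 4.3.3), with group as the only term, after leaving out 10253 genes with a mean under 1 FPKM. All 38 genes passed this filter. Benjamini-Hochberg adjustment covered the 11920 genes tested, two-sided, with calls at an adjusted p under 0.05. Sums, ratios and promoter motifs are descriptions without a test. The fit was tested on simulated data. The genes and lists were chosen with earlier results of these data known. Values in every library are given for up to 4 genes of each role with the smallest p, every gene called higher, and Cd79a, Cd79b, Ms4a1, Cr2, Fcer2a, Cd1d1, Pax5 and Ebf1. Of each further list, up to 4 called genes with the smallest p are named; other names were added after values were seen. Some genes that this rule names are left out of the text. Alternatives were other pseudocounts, filters and scalings, voom on recovered reads, a replicate block and libraries left out. The fit without sHA-X replicates 3 and 4 was added after seeing the data, as was, for the fit relative to 6 B cell genes, the one without both second replicates.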

Additional observations from a re-analysis of the deposited data

Results flagged for a closer look

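S1pr3, the sphingosine receptor of marginal zone B cells, had 1 sHA-X library apart from the rest of its group. Replicate 2 was at 13.7 FPKM and the other 3 lay between 10.6 and 11.0 FPKM. The gap to its nearest neighbour was 0.871 of the group's whole range, above Dixon's 95% critical value for 4 samples. Of 44 groups of values examined in this way this was the only one, and chance alone picks out about 1 in 20.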

How the results depend on the processing

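PBS and sHA-X libraries share the replicate numbers 1 to 3. Deviations of same-numbered libraries correlated at 0.15, -0.21 and -0.29 over 11920 genes. These values show no steady pairing, but so few libraries cannot settle whether the numbers pair them. With a replicate block, 5 of the 38 genes were lower (Cd79b, Ms4a1, Niban3, Vpreb3 and Fcer2a) and 0 higher, 1 of the further receptor pathway genes and 3 of the further identity genes were lower, and over all genes 276 were higher and 72 lower. Under other scalings, filters, pseudocounts and voom, between 15 and 19 of the 38 were lower. Cd81 was the only gene called higher; that count was 0 with no filter, with quantile normalisation, without trend and robust variance, without both second replicates and without sHA-X replicates 3 and 4, and 0 to 1 with 1 library left out. Leaving out 1 library gave 14 to 17 lower genes of the 38, 1 to 4 further receptor pathway genes, 6 to 9 further identity genes, 16 to 19 higher and 3 to 3 lower relative to the B cell reference, and a ratio of the summed FPKM of 0.766 to 0.791. The further receptor pathway count was 2 at equal totals and 2 without both second replicates, where the identity count was 6. Without sHA-X replicates 3 and 4, 9 of the 38, 1 pathway gene and 3 identity genes were lower; that fit has fewer libraries. Over all genes the calls with 1 library left out ran from 488 higher and 228 lower (without PBS replicate 1) to 1263 and 637 (without PBS replicate 3), with 492 and 330 without both second replicates and 384 and 116 without sHA-X replicates 3 and 4.

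Differences changed sign only for genes that did not pass: Pou2f2 (0.0044), Cd83 (0.030), Cd9 (0.071), S1pr3 (0.029) and Cd38 (0.076) without PBS replicate 3; Cd24a without PBS replicate 2 (0.061) and without both second replicates (0.17), where Notch2 was at -0.0147; Cd9 and Cd38 at equal totals (0.015 and 0.016), without sHA-X replicate 1 (0.0055 and 0.0069) and without sHA-X replicate 3 (0.00535 and 0.026); S1pr3 and Cd38 without sHA-X replicates 3 and 4 (0.032 and 0.000227). The lowest values with 1 library left out were -0.12 (Pou2f2) and -0.14 (S1pr3) without sHA-X replicate 2, -0.13 (Cd83), -0.11 (Cd9) and -0.087 (Cd38) without PBS replicate 2, and -0.61 (Cd24a) without PBS replicate 3. The cause was not tested. For single genes, 936 values under an alternative kept their direction and side of the threshold, 51 no longer passed and 10 newly passed. The 38 genes had at least 409 reads in a library.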

Other observations

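Rag1, the recombinase gene of developing lymphocytes, was left out by the filter with a mean of 0.897 FPKM. It had 2.52, 2.30 and 0.946 FPKM in PBS and 0.0986, 0.167, 0.0717 and 0.173 FPKM in sHA-X, so every sHA-X library was below every PBS library. With no filter its difference was -1.33 on the log2 scale (SE 0.20, limma adjusted p = 0.011), from 16 to 540 recovered reads per library. Igll1, a surrogate light chain gene of precursor B cells, had 1.39, 0.971 and 0.103 FPKM in PBS and at most 0.0925 FPKM in sHA-X, where 2 libraries had no read (adjusted p = 0.12 with no filter). Of the other precursor genes, Rag2 (adjusted p = 0.055), Dntt (0.12) and Vpreb1 (0.49) did not pass with no filter. Vpreb1 overlapped between the groups, at 0.648, 0.652 and 0.739 FPKM in PBS against 0.0816, 0.615, 0.701 and 0.559 FPKM in sHA-X.

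Jchain, which joins secreted IgM and IgA, had 331, 452 and 544 FPKM in PBS and 736, 1661, 739.9 and 1812 FPKM in sHA-X. All sHA-X libraries were above PBS, yet the difference did not pass (adjusted p = 0.089), as sHA-X replicates 2 and 4 stood far above replicates 1 and 3. Niban3 over Ms4a1 was 0.056 to 0.063 in PBS and 0.025 to 0.030 in sHA-X, a ratio chosen with both levels known and not tested.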
